A study of Mus musculus with 24 samples.

Results

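The genes described here are Il10 and 9 genes of the JAK-STAT pathway and its feedback, namely the inhibitors Socs1, Socs2, Socs3 and Cish, the kinases Jak1 and Jak2, and the transcription factors Stat3, Stat5a and Stat6. They were taken from the arrays by name, as the probes whose gene name equalled 1 of these symbols, which gave 17 of 41174 probes and 10 of 21597 gene symbols, and all 10 genes were tested. RNA came from C57BL/6 mice, from elicited peritoneal macrophages (EPM, harvested after injection of thioglycollate broth), from bone marrow-derived macrophages (BMDM, grown in medium conditioned by L cells as a source of M-CSF), and from resting splenic B cells (obtained by depleting cells that carry CD43 or CD11b). Cells were treated with Kdo2 lipid A (KLA), a lipid that acts on TLR4, or kept as controls. The treated groups were EPM, BMDM and B cells after KLA for 1 h and for 12 h. The controls for 12 h received the solvent DMSO in all 3 cell types, the control for 1 h was DMSO in BMDM, and in EPM and B cells it was an untreated sample with no time or solvent in its label. These are called the early controls below.

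Cytokine receptors that lack a kinase of their own signal through Janus kinases, which phosphorylate STAT proteins that then enter the nucleus and switch on target genes. Among those targets are the SOCS genes and Cish, whose proteins bind receptors or kinases and damp the same signal, so that the pathway carries its own brake. In macrophages activated through Toll-like receptors, secreted IL-10 acts on the IL-10 receptor through Jak1, Tyk2 and Stat3 and restrains inflammatory gene expression, and Socs3 restrains the signal of the IL-6 receptor chain gp130.

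Each of the 12 conditions had n = 2 biological replicates, which were hybridised together to 1 Agilent array, one in the Cy5 channel and the other in the Cy3 channel. The spread between replicates therefore leaves out differences between arrays, and array and condition cannot be told apart. Each cell type had a slide of its own, so the same holds for slide and cell type. For that reason each call below was also made with array means as the samples and the 2 control arrays of a cell type as replicates. This fit has 3 residual degrees of freedom, and members' calls with KLA that were lost there are named. The 2 control arrays are the early and the 12 h control. Their spread therefore holds changes with time, and in EPM and B cells any effect of the solvent, besides differences between arrays. The fit cannot separate these, and it sets KLA at each time against the mean of both controls. Between 57.4% and 65% of probes were well above background in a channel. All 8 B cell markers measured were detected in B cell channels, whereas 5 or 6 of 8 macrophage markers were detected there at a summed intensity of 1205 to 3067, against 250200 to 484400 in macrophages. In EPM and BMDM, 4 to 6 of 8 B cell markers were detected, at a summed intensity of 59150 to 66340 in EPM and 19870 to 29130 in BMDM, against 275100 to 332600 in B cells. The median B cell marker stayed between 6.29 and 6.67 on the log2 scale in macrophages, against 13.3 to 13.6 in B cells. For 2 B cell conditions, KLA for 1 h and control for 12 h, the columns of the table deposited by the authors matched the scanner channels labelled as the other condition (correlation of at least 0.977, against at most -0.742 with the channels of the same name). B cell values below follow the scanner labels, and the calls within B cells and their differences from macrophages are also given with these 2 labels exchanged. Which of the 2 assignments is right was not tested.

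Most of these genes changed in macrophages. In EPM at 1 h, 6 of 10 were higher and 1 was lower with KLA (limma, adjusted p under 0.05), in a comparison that called 29.1% of all genes. At 12 h in EPM, 8 were higher and 1 was lower, with 53.9% of all genes called. In BMDM at 1 h, 6 were higher and none was lower, with 28.6% of all genes called and 0 of the 10 lower even at an unadjusted p under 0.05. At 12 h in BMDM, 6 were higher and 1 was lower, with 65% of all genes called. The median change of the 10 genes was 0.79, 0.95, 0.74 and 1.09 on the log2 scale in these 4 comparisons, whereas the median over all genes lay between -0.06 and -0.03. In B cells as labelled, none of the 10 was called at 1 h and 2 were called at 12 h, where 5.17% and 5.29% of all genes were called. Il10, Socs1, Socs3, Cish, Jak2 and Stat5a were higher in both macrophage types at 1 h, and at 12 h Il10, Socs1, Socs3, Jak2, Stat3 and Stat5a were. Cish was the 1 gene called in opposite directions in EPM and BMDM, at 12 h. Fewer calls were made with array means as samples, at 3 and 5 of 10 in EPM at 1 h and 12 h (with 0.951% and 11.6% of all genes called), 3 and 5 in BMDM (0.571% and 21.1%), and 0 at both times in B cells (0.0807% and 0.00576%). Each of the calls made was an increase.

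**Figure D1:**
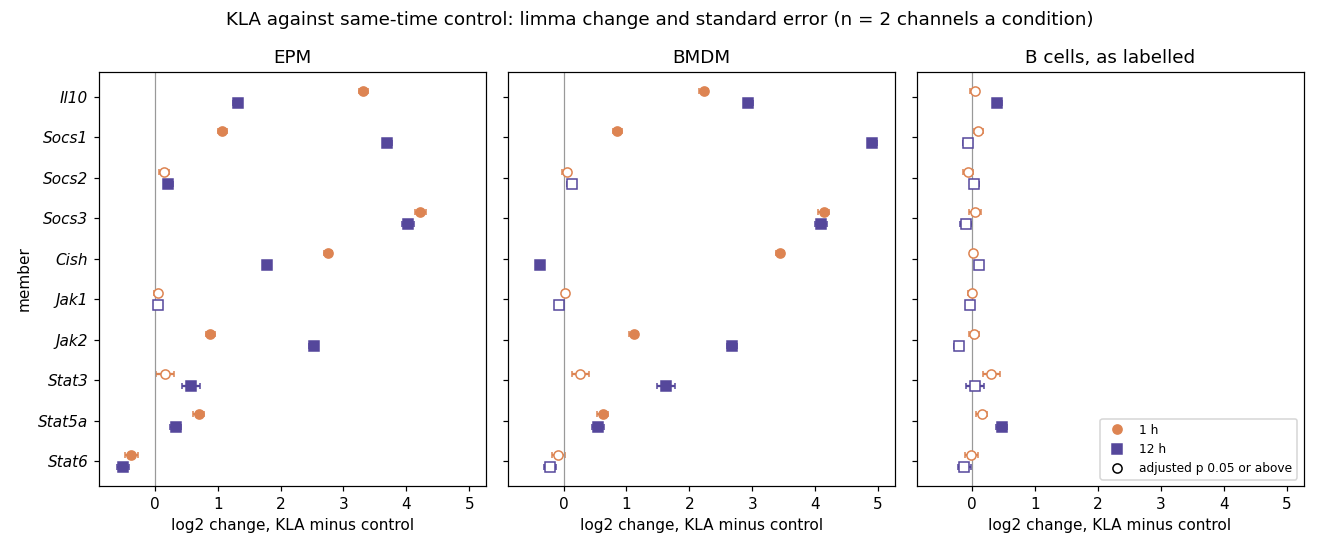
Change of each gene with KLA (x axis, log2 change against the same-time control; bars are the standard error of the limma fit) at 1 h (circles) and 12 h (squares) in EPM, BMDM and B cells as labelled, with filled symbols where the adjusted p was under 0.05. Socs3 sits near 4 at both times in EPM and BMDM, Socs1 and Jak2 lie farther right at 12 h than at 1 h, and the B cell points lie between -0.22 and 0.47.

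Il10 encodes the anti-inflammatory cytokine at the head of this feedback (NM_010548; probe on chromosome 1, 132851912 to 132851971, on mm8 as are all probe positions here). In EPM, its log2 intensity was 6.24 in the Cy5 channel and 6.21 in the Cy3 channel of untreated cells, and 9.68 and 9.40 after KLA for 1 h. At 12 h the EPM control channels read 6.16 and 6.17, neither of them well above background, and the KLA channels 7.52 and 7.45. In BMDM, the control channels read 8.37 and 8.36 at 1 h and 8.55 and 8.47 at 12 h, and the KLA channels 10.56 and 10.63 at 1 h and 11.45 and 11.44 at 12 h. KLA channels lay above their controls at both times in both macrophage types, and the order of the 2 times was opposite, with the higher level at 1 h in EPM and at 12 h in BMDM.

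The increase in Il10 was 3.32 on the log2 scale in EPM at 1 h (standard error 0.07, adjusted p = 7.5e-17), which is 9.97-fold. At 12 h it was at least 2.50-fold (log2 change 1.32, adjusted p = 1.52e-11), a bound that equals the fold of the means because the control values were above the lowest signal counted as well above background. In BMDM the increase was 2.23 at 1 h (adjusted p = 3.12e-14) and 2.93 at 12 h (adjusted p = 1.05e-16), or 4.69-fold and 7.64-fold. All 4 calls held with array means as samples (limma, adjusted p from 0.00122 to 0.0165). The offset added in the background correction compresses dim values, and with the processed signal of the scanner software the EPM changes were 5.77 at 1 h and 3.54 at 12 h, against 2.48 and 3.20 in BMDM.

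The suppressor of cytokine signalling genes and Cish are the feedback inhibitors of the group. Their promoters were searched for the binding motif of STAT dimers, TTCNNNGAA, which reads the same on both strands. The motif lay in the windows of Socs3 and Cish and of no other of the 8 members with a RefSeq promoter sequence, and in 8.3% of 32851 promoter windows of the same length (250 bases before and 50 after the annotated start, GRCm38.p6). Il10 and Socs2 are the members with no promoter shown. The stretches around the matches are printed 5′ to 3′ on the strand of the gene, with the motif in capitals, for the members that carry it. Whether the motif bears on the changes with KLA was not tested. Socs3 carried 1 match, TTCTTAGAA, whose first base lies at position -154, counted with 1 as the first transcribed base and no position 0, in chr11:117969477-117969556 (minus strand). Cish carried 2 matches, TTCCTGGAA and TTCTTGGAA, which begin at bases 1 and 12 of the annotated transcript, in chr9:107296599-107296683 (plus strand).
Socs3: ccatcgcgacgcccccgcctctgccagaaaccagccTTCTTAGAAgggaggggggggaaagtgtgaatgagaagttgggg
Cish: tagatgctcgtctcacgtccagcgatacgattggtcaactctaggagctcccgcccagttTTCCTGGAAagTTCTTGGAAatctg

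Other motifs told these promoters apart less. TTC and GAA around a spacer of 4 bases, the spacing preferred by Stat6, lay in no member window and in 6.95% of all windows. The AP-1 motif TGANTCA and the TATA motif TATAAA also lay in none, against 7.81% and 13.6% of all windows. GGG and CC around a spacer of 5 bases, a loose core of NF-kB sites, lay in windows of 7 of the 8 members and in 50.8% of all windows. All motifs were searched on both strands, the match of letters is a description, and binding was not measured on these arrays.

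Socs3 (NM_007707; chromosome 11, 117782256 to 117782315), whose protein blocks gp130 and other receptors, rose by a similar amount at both times in both macrophage types. In EPM the channels read 11.72 and 11.79 without treatment and 16.04 and 15.92 after KLA for 1 h, then 11.09 and 11.11 in the 12 h control and 15.06 and 15.19 after KLA for 12 h. In BMDM they read 11.55 and 11.84 and then 15.76 and 15.90 at 1 h, and 11.42 and 11.64 and then 15.55 and 15.70 at 12 h. Every KLA channel was above 15 on the log2 scale and every macrophage control below 12. The scanner software flagged 0 spots as saturated, control spots aside, and whether values this bright were compressed was not tested. The increase was 4.22 in EPM at 1 h (standard error 0.09, adjusted p = 1.06e-16), 4.03 in EPM at 12 h, 4.13 in BMDM at 1 h and 4.09 in BMDM at 12 h, which is 16.3-fold to 18.7-fold. All 4 held with array means as samples (adjusted p from 0.00216 to 0.014). No difference between EPM and BMDM was called at 1 h (0.09, standard error 0.13) or at 12 h (-0.07, standard error 0.13), nor between the times in EPM (-0.20) or BMDM (-0.04).

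Socs1 (NM_009896; chromosome 16, 10697436 to 10697495), an inhibitor of JAK kinases and of interferon signalling in particular, rose mainly at 12 h. At 1 h the EPM channels went from 8.93 and 8.84 to 9.97 and 9.94, and the BMDM channels from 8.76 and 8.62 to 9.49 and 9.60. At 12 h they went from 8.83 and 8.78 to 12.50 and 12.50 in EPM, and from 8.72 and 8.69 to 13.55 and 13.69 in BMDM. All KLA channels were above all controls, and the control level stayed between 8.62 and 8.93 in macrophages throughout. The change was 1.07 in EPM and 0.85 in BMDM at 1 h (adjusted p = 2.56e-09 and 5.77e-08), and 3.70 and 4.91 at 12 h (adjusted p = 5.42e-18 and 1.3e-19), or 12.96-fold and 30.1-fold. Both 1 h calls were lost when array means were the samples (adjusted p = 0.834 and 0.92). Those at 12 h held (adjusted p = 0.0398 and 0.0119). The spread in that fit comes from the difference between the early and the 12 h control, pooled over the cell types. For Socs1 this difference was -0.08 in EPM, 0.01 in BMDM and -1.91 in B cells as labelled. With the B cell labels exchanged it was 0.095, and array means were not fitted with that labelling. The same spread enters the other Socs1 results with array means.

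Cish (NM_009895; chromosome 9, 107159966 to 107160025), which is induced through Stat5 and acts on receptors of cytokines such as IL-2 and GM-CSF, rose at 1 h in both macrophage types and separated them at 12 h. In EPM its channels read 7.45 and 7.37 without treatment, 10.20 and 10.13 after KLA for 1 h, 7.26 and 7.30 in the 12 h control and 9.01 and 9.13 after KLA for 12 h. In BMDM they read 7.31 and 7.42 in the 1 h control, 10.75 and 10.86 after KLA for 1 h, 7.18 and 7.25 in the 12 h control and 6.79 and 6.88 after KLA for 12 h. The level in BMDM thus lay below the control at 12 h after lying far above it at 1 h, while in EPM it stayed above. The change was 2.75 in EPM (adjusted p = 1.13e-16) and 3.44 in BMDM (adjusted p = 6.89e-18) at 1 h, or 6.72-fold and 10.9-fold. At 12 h it was 1.79 in EPM (adjusted p = 1.62e-14) and -0.38 in BMDM (adjusted p = 2.74e-05). The 3 increases held with array means as samples (adjusted p from 0.0046 to 0.00702), and the decrease in BMDM did not (adjusted p = 0.111).

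Socs2 (NM_007706; chromosome 10, 94842120 to 94842179), best known as a brake on growth hormone signalling, changed little. Its channels in EPM lay between 7.35 and 7.65 in the 1 h comparison and went from 7.52 and 7.38 to 7.61 and 7.72 at 12 h. In BMDM all 8 channels lay between 6.28 and 6.54. The 12 h change of 0.22 in EPM was called (adjusted p = 0.0199), and was not called without the Cy3 channel of the control (0.15, adjusted p = 0.191), without the Cy3 channel of KLA (0.16, adjusted p = 0.165), with array means as samples (adjusted p = 0.288) or with the processed signal (0.35, adjusted p = 0.0543). The BMDM change at 12 h, 0.13 (adjusted p = 0.146), was called without the Cy3 channel of KLA (0.22, adjusted p = 0.0354) and with the processed signal (0.44, adjusted p = 0.0142). A further Socs2 probe was well above background in 8 of 24 channels and was not used.

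**Figure D2:**
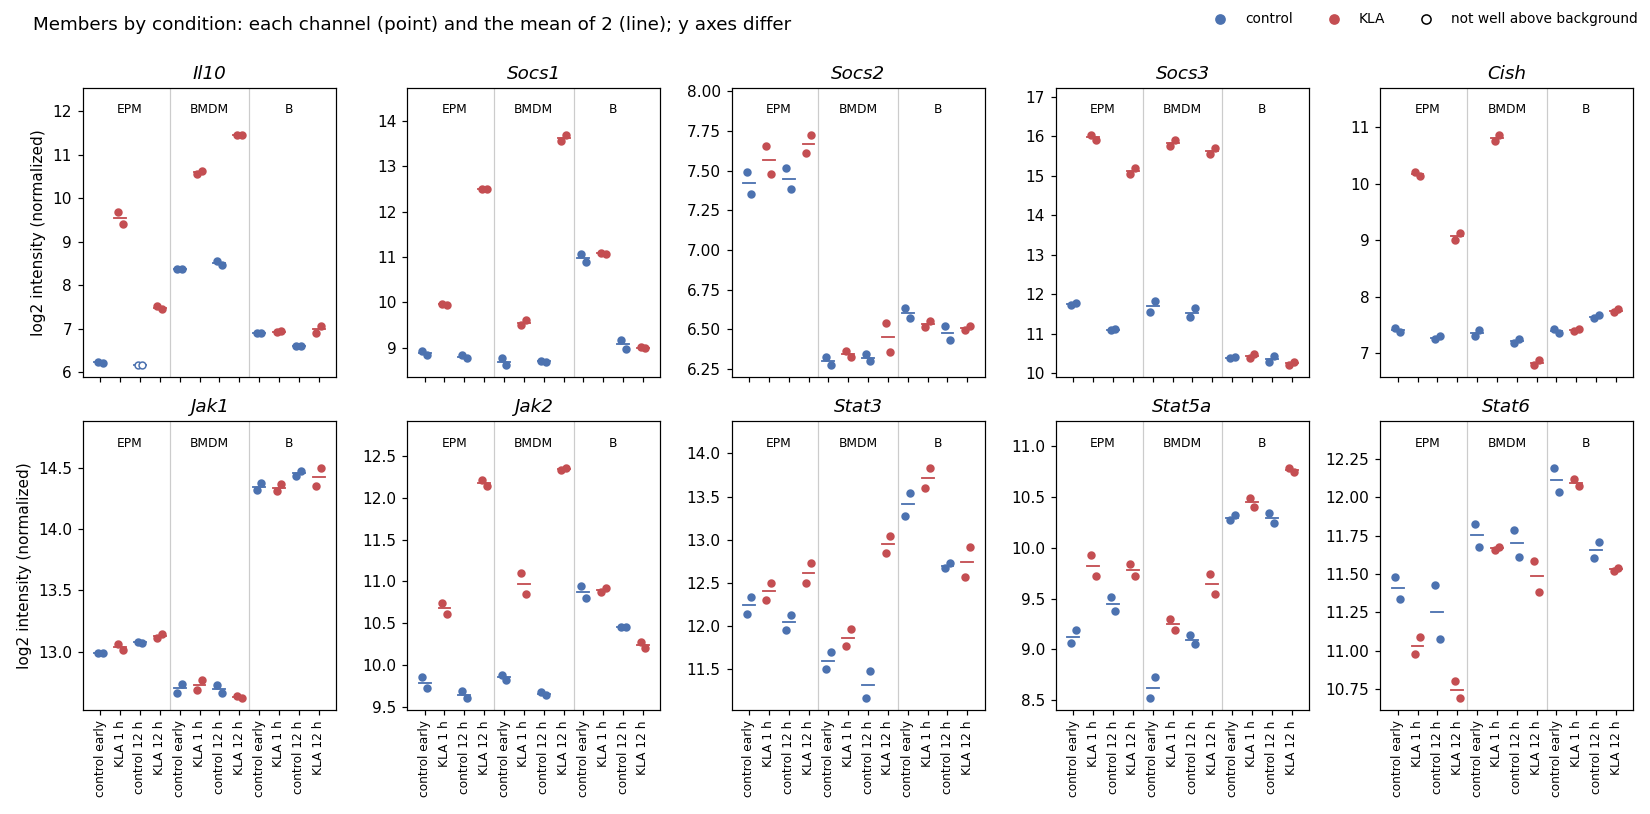
Normalized log2 intensity (y axis, which differs between genes) of each gene in the 12 conditions (x axis), with 1 point per channel, a line at the mean of 2 channels, blue for controls, red for KLA and open points where the probe was not well above background. Socs3 lies above 15 with KLA at both times in EPM and BMDM, Cish is high at 1 h and parts between EPM and BMDM at 12 h, and Socs1 in B cells drops from the first 2 conditions to the last 2.

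Among the kinases, Jak2 (NM_008413; chromosome 19, 29377868 to 29377927), which serves receptors of interferon gamma, GM-CSF and IL-12, rose at both times. The probe that stood for Jak1 did not change by a called amount. Jak2 went from 9.86 and 9.73 to 10.75 and 10.61 in EPM and from 9.89 and 9.83 to 11.10 and 10.85 in BMDM at 1 h. At 12 h it went from 9.69 and 9.61 to 12.21 and 12.14 in EPM and from 9.68 and 9.64 to 12.33 and 12.35 in BMDM. All KLA channels lay above all macrophage controls. The change was 0.88 in EPM and 1.11 in BMDM at 1 h, and 2.52 and 2.68 at 12 h (adjusted p of at most 5.4e-08 in each), which is 5.75-fold and 6.39-fold at the later time. The 1 h calls were lost with array means as samples (adjusted p = 0.182 and 0.122), and the 12 h calls held (adjusted p = 0.00381 and 0.00302). The other Jak2 probe, whose mean over all channels was 6.76, gave 0.38 and 0.13 at 1 h and 0.75 and 1.26 at 12 h in EPM and BMDM, in the same direction, with BMDM at 1 h not called (adjusted p = 0.17).

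Jak1 (NM_146145; chromosome 4, 100651121 to 100651180), the kinase shared by the receptors of IL-10, IL-6 and the interferons, was bright and flat. Its channels lay between 12.99 and 13.15 in EPM and between 12.62 and 12.77 in BMDM, and the 4 macrophage changes lay between -0.07 and 0.05 (adjusted p of at least 0.311). Its other probes did not follow in every comparison, and each of them was called higher in EPM at 12 h. A second probe of the same transcript gave -0.24 in BMDM at 1 h (adjusted p = 0.0061) and 0.41 in EPM at 12 h (adjusted p = 1.8e-05). The third, annotated to another cDNA (AK029232) with its coordinates in the opposite order, gave 0.28 in EPM (adjusted p = 0.0014) and 0.18 in BMDM (adjusted p = 0.021) at 12 h. Its mean over all channels was 6.99, against 13.05 for the second probe. In the table normalized by the authors, Jak1 was also called at 12 h, at 0.31 in EPM and 0.19 in BMDM.

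Stat3 (NM_213659; chromosome 11, 100704374 to 100704433), the factor through which IL-10 and IL-6 signal, was higher at 12 h. In EPM its channels went from 11.95 and 12.13 to 12.50 and 12.73 at 12 h, and in BMDM from 11.16 and 11.48 to 12.85 and 13.04. The change was 0.58 in EPM (adjusted p = 0.00191) and 1.62 in BMDM (adjusted p = 8.02e-09), and the BMDM call held with array means as samples (adjusted p = 0.0302) whereas the EPM call did not (adjusted p = 0.453). At 1 h the channels went from 12.14 and 12.34 to 12.30 and 12.50 in EPM and from 11.50 and 11.70 to 11.77 and 11.97 in BMDM, so that the groups overlapped in EPM and not in BMDM. These changes, 0.16 and 0.27, were not called, and they were called with the dye as a replicate block (adjusted p = 0.0276 and 0.00075). The Cy3 channel of Stat3 read higher than the Cy5 channel in all 12 conditions. Another probe annotated to Stat3, well above background in 21 of 24 channels, gave 0.03 in EPM and 0.25 in BMDM at 12 h (adjusted p = 0.81 and 0.0085).

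Stat5a (NM_011488; chromosome 11, 100700920 to 100700979), a factor downstream of GM-CSF, IL-2 and prolactin receptors, rose modestly. Its channels went from 9.07 and 9.19 to 9.93 and 9.72 in EPM and from 8.52 and 8.73 to 9.30 and 9.19 in BMDM at 1 h. At 12 h they went from 9.52 and 9.38 to 9.84 and 9.72 in EPM and from 9.14 and 9.05 to 9.74 and 9.54 in BMDM. The groups did not overlap in any of the 4 comparisons, and the controls themselves were higher at 12 h than at the early time. The change was 0.70 and 0.62 at 1 h and 0.33 and 0.55 at 12 h in EPM and BMDM (adjusted p of at most 0.00359), and none of the 4 held with array means as samples (adjusted p from 0.0806 to 0.812). Without the Cy3 channel of the 12 h EPM control, the EPM change at 12 h was 0.26 and not called (adjusted p = 0.0531).

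Stat6 (AK149563; chromosome 10, 127063582 to 127063641), the factor of IL-4 and IL-13, was the member that fell in EPM. Its channels went from 11.48 and 11.33 to 10.98 and 11.09 at 1 h and from 11.43 and 11.07 to 10.80 and 10.69 at 12 h, without overlap at either time. The change was -0.37 at 1 h (adjusted p = 0.00937) and -0.51 at 12 h (adjusted p = 0.000362), and neither held with array means as samples (adjusted p = 0.861 and 0.163). The 1 h call was also lost without the Cy5 channel of the untreated cells (-0.30, adjusted p = 0.103), without the Cy5 channel of KLA (-0.32, adjusted p = 0.0928) and with the processed signal (-0.36, adjusted p = 0.085). In BMDM the change was -0.08 at 1 h and -0.22 at 12 h (adjusted p = 0.604 and 0.0722). The latter was called with the replicate block (adjusted p = 0.0216), without the Cy3 channel of the control (-0.30, adjusted p = 0.0435) and without the Cy5 channel of KLA (-0.32, adjusted p = 0.0326). A Stat6 probe with 10 spots an array gave -0.11 at 1 h and -0.30 at 12 h in EPM (adjusted p = 0.33 and 0.0025). In BMDM it gave -0.07 and -0.06, neither called. A further Stat6 probe, whose mean over all channels was 6.77, gave -0.10 and -0.17 in EPM. In BMDM that probe gave 0.08 and 0.11, and none of its changes was called.

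Before treatment the cell types differed in most of these genes, as they did in most of the genome. Between EPM and BMDM, 5 of the 10 were higher in EPM and 2 were lower, with 57.8% of all genes called. Il10 was lower in EPM than in BMDM, with a log2 difference of -2.14 (adjusted p = 1.03e-14), or 4.42-fold. Socs2 was higher in EPM by 1.12 (adjusted p = 2.64e-10). These were the 2 calls that held with array means as samples (adjusted p = 0.000815 and 0.0019), and with the processed signal both were larger, at -4.45 and 2.44. The others were Stat3 (0.64), Stat5a (0.50), Jak1 (0.29), Socs1 (0.19) and Stat6 (-0.35). Socs1 was not called without the Cy5 channel of untreated EPM (0.15, adjusted p = 0.206) or the Cy3 channel of the BMDM control (0.12, adjusted p = 0.283), and Stat6 was not called without the Cy3 channel of untreated EPM (-0.27, adjusted p = 0.0809) or the Cy5 channel of the BMDM control (-0.27, adjusted p = 0.0818). Socs3, Cish and Jak2 differed by 0.06, 0.05 and -0.06 and were not called. Markers of other cells also differed between these preparations. The summed intensity of 7 neutrophil markers was 9999 to 24850 in BMDM channels and 1122 to 2050 in EPM, that of 3 fibroblast markers 3643 to 5734 and 51440 to 94350, and the B cell markers given above were brighter in EPM. The B cell markers Cr2 and Fcer2a were not well above background in either macrophage type, and the part of other cells in the basal differences was not tested.

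Untreated B cells had 7 members higher and 2 lower than EPM, and also 7 higher and 2 lower than BMDM, in comparisons that called 77.2% and 76.6% of all genes. The kinases and STAT factors were higher in B cells throughout. Jak1 read 14.32 and 14.37 in B cells and was higher than in EPM by 1.35 and than in BMDM by 1.64, Jak2 by 1.08 and 1.02, Stat3 by 1.17 and 1.81, Stat5a by 1.17 and 1.67, and Stat6 by 0.71 and 0.36 (adjusted p of at most 0.00368). Socs1, at 11.07 and 10.89, was higher in untreated B cells by 2.10 and 2.29, a call that did not hold with array means (adjusted p = 0.159 and 0.125), where the 12 h control of B cells, which read 9.16 and 8.98, enters the same group. Socs3 was lower in B cells by 1.36 and 1.30 relative to EPM and BMDM, and Cish, at 7.43 and 7.37, differed from neither by a called amount. The basal order of Il10 was BMDM, B cells and EPM, with every step called, and that of Socs2 was EPM, B cells and BMDM, where the step between B cells and BMDM (0.30) was lost with array means (adjusted p = 0.0907). Stat6 between B cells and BMDM was lost with array means (adjusted p = 0.483) and without the Cy5 channel of untreated B cells (0.28, adjusted p = 0.0508), and without normalization between arrays it was -0.06. The cells measured were pools, in which fewer cells of a type and less RNA per cell cannot be told apart.

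In the controls alone, the share of members called in macrophages between the early and the 12 h sample was near or below that over all genes. In EPM, 2 of 10 were called, with 19.1% of all genes called. These were Socs3, which was lower at 12 h by 0.65 (adjusted p = 5.59e-05), and Stat5a, which was higher by 0.32 (adjusted p = 0.0152). Stat5a was not called without the Cy5 channel of untreated EPM (0.26, adjusted p = 0.157) or of the 12 h control (0.25, adjusted p = 0.155), and without the latter Stat6 was called instead (-0.33, adjusted p = 0.0427). In BMDM, Stat5a was the only 1 called (0.47, adjusted p = 0.00072), with 23.2% of all genes called, and with the replicate block Stat3 (-0.28), Jak2 (-0.20) and Cish (-0.15) were called lower as well. In B cells as labelled, 1 member was higher and 5 were lower at 12 h, with 47.4% of all genes called. Between the same 2 conditions the summed intensity of 3 erythroid markers went from 7586 and 8723 to 3814 and 3917, that of 8 macrophage markers from 1205 and 1215 to 2937 and 3067, and that of 7 T cell markers from 1479 and 1818 to 3096 and 3502 (lowest and highest channel), and their part in the change was not tested. The largest member change was that of Socs1, at -1.91 (adjusted p = 5.91e-13), and the others were Stat3 (-0.71), Stat6 (-0.46), Jak2 (-0.42), Il10 (-0.30) and Cish (0.25). With the 2 B cell labels exchanged none of the 10 was called (limma, adjusted p of at least 0.25), with values of -0.07 to 0.30. The channels labelled KLA 1 h, which are then the 12 h control, read 7161 and 9947, 1216 and 1247, and 1539 and 1618 for these lists.

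The responses of EPM and BMDM to KLA were compared directly by the difference of their log2 changes. At 1 h, 2 of 10 members differed, with 9.56% of all genes called. Il10 rose more in EPM by 1.09 (standard error 0.10, adjusted p = 5.68e-07), and Cish rose more in BMDM by 0.69 (difference EPM minus BMDM of -0.69, adjusted p = 2.11e-05). At 12 h, 4 differed, with 47.8% of all genes called. The change of Cish was higher in EPM by 2.17 (adjusted p = 1.06e-12), and those of Il10, Socs1 and Stat3 were lower in EPM (differences of -1.61, -1.22 and -1.05). The difference in Cish at 12 h held with array means as samples (adjusted p = 0.0369), and none of the others did, at 1 h or at 12 h (adjusted p from 0.0649 to 1). The 12 h difference in Il10 changed sign with the processed signal (0.34, adjusted p = 0.0891), and the EPM control of this comparison was not well above background in either channel.

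Some of these genes changed more at 1 h and others more at 12 h, and the number called was near the share over all genes. The 12 h change differed from the 1 h change for 5 of 10 members in EPM and for 5 of 10 in BMDM, with 43.7% and 54.4% of all genes called. Socs1 gained 2.62 in EPM and 4.06 in BMDM from 1 h to 12 h, and Jak2 gained 1.64 and 1.56 (adjusted p of at most 7.62e-10). The change of Cish was smaller at 12 h, with differences of -0.96 in EPM and -3.82 in BMDM (adjusted p = 4.57e-08 and 2.19e-16). Il10 differed in direction, with -1.998 in EPM (adjusted p = 1.27e-11) and 0.70 in BMDM (adjusted p = 1.02e-05). Stat3 gained 1.36 in BMDM, and Stat5a differed by -0.36 in EPM (adjusted p = 0.025), where leaving out any of 4 channels ended the call (values of -0.31 to -0.26). With array means as samples Il10, Cish and Jak2 remained called in EPM and Socs1, Cish and Jak2 in BMDM, whereas Socs1 and Stat5a in EPM (adjusted p = 0.164 and 0.982) and Il10 and Stat3 in BMDM (adjusted p = 0.0518 and 0.137) did not.

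In B cells the response differed from the mean of the macrophage responses for 6 of 10 members at 1 h and for 6 at 12 h, all of them lower than that mean, with 21.9% and 55.8% of all genes called. For Cish at 12 h the mean spans opposite changes, 1.79 in EPM and -0.38 in BMDM. The B cell change of 0.11 lay below the former and above the latter. The largest differences were those of Socs3 (-4.14), Cish (-3.08) and Il10 (-2.73) at 1 h and of Socs1 (-4.38), Socs3 (-4.16) and Jak2 (-2.82) at 12 h. The same 6 members were called lower with the B cell labels exchanged, together with Stat3 at 1 h (-0.92), where 49.8% and 65.8% of all genes were called. At 12 h the number of members called was thus near the share over all genes under either labelling. At 1 h the difference of Socs3 was then -4.22, that of Cish -2.85 and that of Il10 -3.08, and at 12 h that of Socs1 was -6.38, that of Socs3 -4.25 and that of Jak2 -3.26. With array means as samples, Il10, Socs3 and Cish remained at 1 h, and Il10, Socs1, Socs3 and Jak2 at 12 h, while Socs1 at 1 h was 0.07 (adjusted p = 0.992), and Jak2 and Stat5a at 1 h and Cish and Stat3 at 12 h were not called (adjusted p = 0.505, 0.892, 0.284 and 0.121).

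**Figure D3:**
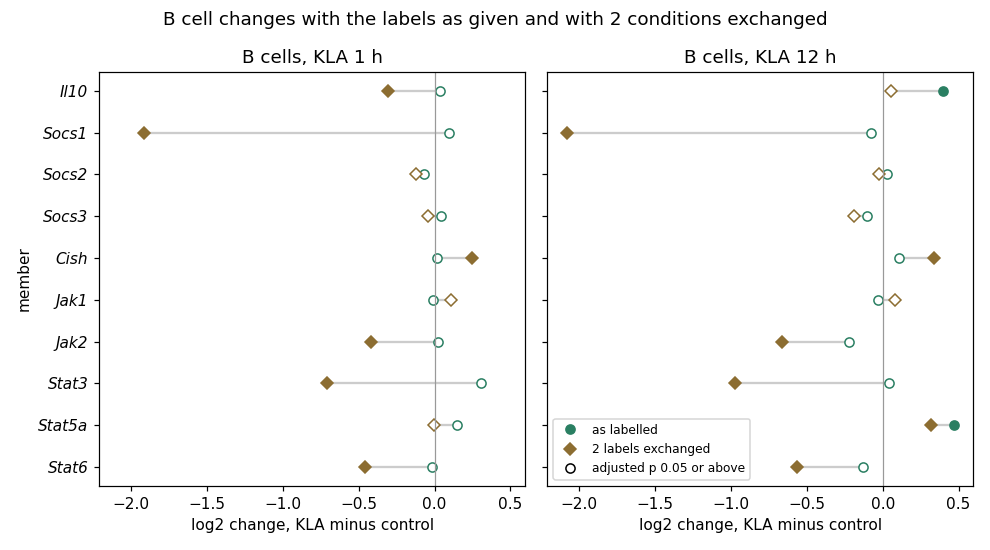
Change of each gene with KLA in B cells (x axis, log2 change) at 1 h and 12 h, with the labels as given (circles) and with the labels of KLA 1 h and control 12 h exchanged (diamonds), filled where the adjusted p was under 0.05. As labelled, Il10 and Stat5a at 12 h are filled, and with the exchange Socs1 moves to -1.91 and -2.08, farthest of the 10.

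Within B cells, the channels of Socs3 lay between 10.20 and 10.48 in all 4 conditions, those of Cish between 7.37 and 7.78, and those of Jak1 between 14.31 and 14.50. Socs3, Socs2 and Jak1 were called under neither labelling at either time. As labelled, Il10 went from 6.59 and 6.59 to 6.91 and 7.06 at 12 h (0.40, adjusted p = 0.00163) and Stat5a from 10.34 and 10.25 to 10.78 and 10.74 (0.47, adjusted p = 0.00238), both without overlap. At 1 h, 0 members were called by limma and 1, Stat3 (0.30), had an unadjusted p under 0.05. With the replicate block Stat3 was called (adjusted p = 0.00123), as was Jak2 at 12 h (-0.22, adjusted p = 0.0198). With the labels exchanged, 6 members were called at each time, where 47.4% and 49.1% of all genes were called. At 1 h they were Socs1 (-1.91), Stat3 (-0.71), Stat6 (-0.46), Jak2 (-0.42), Il10 (-0.30) and Cish (0.25). At 12 h they were Socs1 (-2.08), Stat3 (-0.97), Jak2 (-0.66), Stat6 (-0.56), Cish (0.34) and Stat5a (0.32), and Il10 was not called (0.05, adjusted p = 0.576). The 12 h change differed from the 1 h change for Il10 alone (0.36, adjusted p = 0.0385), with 7.55% of all genes called, a call that leaving out any of 7 of the 8 channels ended. The value of this difference is the same with the labels exchanged, since it is then the same contrast. With the labels as given, none of the 3 calls made from channels held with array means as samples, which were not fitted with the labels exchanged.

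The rest of the pathway was counted from lists of receptors, ligands, kinases and STAT factors, inhibitors and genes known to respond to IL-10 or Stat3. Of 16 other ligands tested, 9 were higher in EPM and 10 in BMDM at 1 h, none was lower, and at 12 h 11 and 13 were higher and 2 and 1 lower. The share of all genes called in these comparisons was 29.1%, 28.6%, 53.9% and 65%, as it is for the lists that follow. With array means as samples 5 ligands were called higher in each type at 1 h and 7 in each at 12 h, where 1 was lower in EPM. The share of all genes called was then 0.951% in EPM and 0.571% in BMDM at 1 h, and 11.6% and 21.1% at 12 h. These shares also stand beside the later counts with array means in macrophages. Ifnb1, encoding interferon beta, rose at least 181-fold in EPM and at least 575-fold in BMDM at 1 h, and Il6, whose receptor is the chief target of Socs3, rose by 3.07 in EPM and at least 67.2-fold in BMDM. Csf2, encoding GM-CSF, rose at least 5.58-fold in EPM at 1 h, and Ifng at least 6.16-fold in EPM at 12 h. Ifnb1, Csf2 and Ifng held with array means as samples, as did Il6 in BMDM at 1 h (adjusted p = 0.0392) but not in EPM (adjusted p = 0.168).

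Receptors moved in both directions. Of 19 tested, 4 were higher and 4 lower in EPM at 1 h, 4 and 5 in BMDM, and at 12 h 11 and 10 were higher and 4 and 4 lower. Beside the shares of all genes called, 8 of 19 in EPM and 9 of 19 in BMDM at 1 h compare with 29.1% and 28.6%, and 15 and 14 at 12 h with 53.9% and 65%. The IL-10 receptor chain Il10ra rose at 1 h by 0.69 in EPM and 0.62 in BMDM (adjusted p = 0.00203 and 0.00483). At 12 h Il13ra1, a chain of the IL-4 and IL-13 receptor, rose by 2.04 and 2.22, Csf3r, the G-CSF receptor, by 1.99 and 2.19, while Ifngr1, a chain of the interferon gamma receptor, fell by 1.24 and 1.68, and Il6st, which encodes gp130, fell by 0.68 and 1.03. The receptor calls at 1 h were all lost with array means as samples, and at 12 h 3 higher and 1 lower remained in each macrophage type, among them Il13ra1, Csf3r and Ifngr1, whereas Il6st was lost (adjusted p = 0.144 and 0.0513).

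Of the 6 other kinases and STAT factors, 4 were higher and 1 was lower at 12 h in each macrophage type. Stat2, a factor of type I interferon signalling, rose by 3.63 in EPM and 2.71 in BMDM, and both calls held with array means (adjusted p = 0.00479 and 0.00683). At 1 h the calls in this list were Stat2 in EPM (-0.41) and Stat4 in BMDM (0.32), and both were lost with array means. Among 16 other inhibitors, Usp18, a brake on the type I interferon receptor, rose at 12 h by 6.40 in EPM and 4.67 in BMDM, and Socs6 fell by 1.55 in EPM. Dusp1, a phosphatase of MAP kinases, rose at 1 h by 3.65 and 2.74, and the BMDM call was lost with array means. In all, 2 of these inhibitors were higher and 2 lower in EPM at 1 h, 2 and 3 in BMDM, 5 and 6 in EPM at 12 h, and 6 and 5 in BMDM. With array means as samples 1 was called higher in EPM at 1 h and none was called in BMDM, and at 12 h 2 were higher and 2 lower in EPM and 2 were higher in BMDM.

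**Figure D4:**
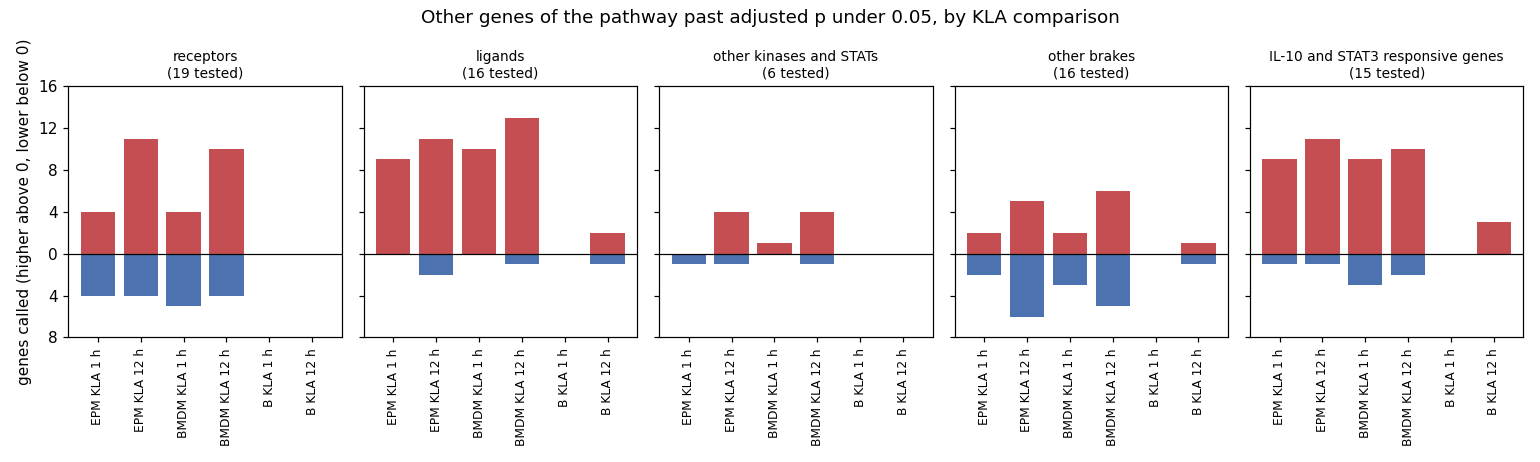
Number of other pathway genes called with KLA (y axis, higher above 0 in red and lower below 0 in blue) in each KLA comparison (x axis), for 5 lists with the number tested above each panel. Ligands are called mostly higher in EPM and BMDM, receptors and inhibitors in both directions, and B cells show no call at 1 h with the labels as given, whereas exchanging them gives calls in every list (not plotted).

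Of 15 genes known to respond to IL-10 or Stat3, 9 were higher and 1 was lower in EPM at 1 h, 9 and 3 in BMDM, 11 and 1 in EPM at 12 h, and 10 and 2 in BMDM. Il1rn, encoding the IL-1 receptor antagonist, rose at 12 h by 3.54 in EPM and 3.45 in BMDM and held with array means (adjusted p = 0.00307 and 0.00421). Pim1, a kinase gene induced by STAT factors, rose at 1 h by 1.97 and 2.78, and all calls of this list at 1 h were lost with array means, while at 12 h 3 were called higher in EPM, and 5 higher and 1 lower in BMDM. Hmox1, encoding heme oxygenase, fell in BMDM by 0.62 at 12 h, a call lost with array means (adjusted p = 0.311), and was higher in B cells as labelled by 0.77. In B cells at 12 h, where 5.29% of all genes were called, 3 of these genes were called higher. Of the ligands 2 were higher, among them Il6 (1.57), and 1 was lower. Of the inhibitors Usp18 was higher (0.49) and Pias2 lower (-0.30). These B cell calls were all lost with array means as samples. With the labels exchanged, 8 of the 15 genes were called at 1 h, 4 in each direction, and 10 at 12 h, 5 in each direction. The share of all genes called was then 47.4% at 1 h and 49.1% at 12 h, beside which the exchanged counts below also stand. Il6 was then higher by 3.25 and Hmox1 by 1.34 at 12 h. At 1 h the exchange gave 3 receptors higher and 11 lower, 5 ligands higher and 2 lower, 4 kinases and STAT factors higher and 2 lower, and 3 inhibitors higher and 5 lower, and at 12 h 3 and 10, 3 and 3, 4 and 2, and 3 and 3.

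The genes whose 12 condition means followed each inhibitor most closely are given as a description, since the means share arrays and slides. For Socs3 these were Il1b (Pearson r = 0.983), Nod2 (0.977) and Ptgs2 (0.972), among 17325 genes ranked. For Socs1 they were Gpd2 (0.981), Ythdf1 (0.959) and Jak2 (0.944), itself a member. For Il10 they were Tnfsf4 (0.977), Nab1 (0.968) and Gpr85 (0.954), and for Cish Npal1 (0.914), LOC676546 (0.913) and Csf2 (0.909), the gene of GM-CSF.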

How the data were processed

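RNA from 24 samples of mouse EPM, BMDM and B cells was measured on 12 Agilent 2-colour arrays. The deposited scanner files hold spot intensity values read by the authors with Agilent Feature Extraction 9.5.3.1, as mean signal, local background and a background-subtracted, dye-normalized processed signal. The authors also deposited normalized intensities for 38516 probes, by a normalization not given in the sources used here. Their log2 values served as an alternative only. The precision is limited by the number of arrays.

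The mean signals were background corrected with normexp (offset 50), control spots were removed, and values were normalized with loess within arrays and Aquantile between arrays in limma 3.58.1 (R 4.3.3, statmod 1.5.0 and the data.table package, version 1.17.8). Spots marked as outliers were left out, which left 134 missing values, and the spots of a probe were averaged. The brightest probe on average stood for its gene, and the test took in the 17347 genes that exceeded background clearly in both channels of some condition. The model treated each channel as 1 sample, fitted a mean for every condition and kept 12 residual degrees of freedom. Differences with a Benjamini-Hochberg adjusted p under 0.05 over all genes are called. Every p in the text is from limma. The p-values measure the spread between channels of 1 array, save those with array means as samples. The latter measure the spread between the early and the 12 h control. The fit was tested on simulated data with independent noise in each channel. These data held no differences between arrays, so they cannot show how such differences affect the calls.

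For a group in which neither channel passed the background flag, "at least" folds set the brighter mean against the larger of the dim reading and the lowest flagged signal. Samples were grouped by their labels. Alternatives were another offset, the processed signal, other normalizations, the values normalized by the authors, other filters and probe choices, the dye as a replicate block, fits within a cell type, each channel left out, array means as samples and exchanged B cell labels. Array means for basal levels and for differences of response, and exchanged labels for the remaining B cell comparisons, were added after seeing the data. The replicate block was used because the differences between dyes correlated across all 66 pairs of arrays (r from 0.265 to 0.626). The 10 members and all lists were chosen with earlier results of these data known. Named pathway genes are taken from the 3 largest increases and decreases called per list and comparison, and the genes most like Il10, Socs1, Socs3 and Cish are the 3 with the highest Pearson correlation. Promoter sequences are from RefSeq on GRCm38.p6, where 8 of 10 members had an entry, and probe positions are those of the scanner files on mm8. Exon and UTR annotation of the probes was not analysed here.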

Additional observations from a re-analysis of the deposited data

Results flagged for a closer look

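Responses to KLA that differed between cell types or times in a test of the difference itself (limma interaction, adjusted p under 0.05) are collected here as differences of log2 changes. Each of these sets of values rests on 2 channels of 1 array per condition.

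At 1 h, the response of EPM minus that of BMDM was 1.09 for Il10 and -0.69 for Cish. At 12 h it was -1.61 for Il10, -1.22 for Socs1, 2.17 for Cish and -1.05 for Stat3. With array means as samples, Cish at 12 h was the 1 of these that was still called.

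The response of B cells as labelled minus the mean response of macrophages was, at 1 h, -2.73 for Il10, -0.87 for Socs1, -4.14 for Socs3, -3.08 for Cish, -0.97 for Jak2 and -0.51 for Stat5a. At 12 h it was -1.73 for Il10, -4.38 for Socs1, -4.16 for Socs3, -0.60 for Cish, -2.82 for Jak2 and -1.06 for Stat3.

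The 12 h change minus the 1 h change was, in EPM, -1.998 for Il10, 2.62 for Socs1, -0.96 for Cish, 1.64 for Jak2 and -0.36 for Stat5a. In BMDM it was 0.70 for Il10, 4.06 for Socs1, -3.82 for Cish, 1.56 for Jak2 and 1.36 for Stat3. In B cells it was 0.36 for Il10.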

How the results depend on the processing

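Over the 6 KLA comparisons, 60 changes of members were recomputed under the alternatives, which gave 967 values. Of these, 910 kept their side of the threshold, 24 lost the call and 33 gained one. No called change turned its sign, and 16 of the 31 calls were never lost. Of the changes not called, 43 values that stayed so turned their sign, from a size of at most 0.15, as did 8 of the 33 that gained a call, 7 of them in B cells with the authors' table or exchanged labels. The 9 reversals of a called change lay in the other comparisons. Genes near background limit the size of a fold, as for Il10 in EPM. The changes of Il10 depend on the offset, as do those of Cish, which was well above background in all 24 channels. The causes of the shifts below were not tested unless the alternative's own construction names them.

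With array means as samples (3 residual degrees of freedom), the members called were 3 in EPM at 1 h, 5 in EPM at 12 h, 3 in BMDM at 1 h and 0 in B cells at 12 h. They were 2 between EPM and BMDM before treatment, 0 and 1 for the response of EPM minus BMDM at 1 h and 12 h, and 3 for B cells minus macrophages at 1 h, where Socs1 reversed to 0.072. For 12 h minus 1 h they were 3 in EPM, 3 in BMDM and 0 in B cells. All genes called were then 165 in EPM at 1 h, 2006 in EPM at 12 h, 99 in BMDM at 1 h, 3653 in BMDM at 12 h, 14 in B cells at 1 h and 1 in B cells at 12 h, against 5049, 9349, 4956, 11265, 897 and 918.

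With the B cell labels exchanged, 6 members and 8218 genes were called at 1 h and 6 members and 8526 genes at 12 h. In B cell controls 0 were called, and Il10 (0.038), Socs1 (0.095), Jak2 (0.025) and Stat3 (0.30) reversed. In the authors' table, 4 members and 7161 genes were called at 1 h and 5 members and 7561 genes at 12 h in B cells, and 0 in B cell controls, where Socs1 (0.14) and Jak2 (0.019) reversed. That table, which lacks Il10 and Stat3, gave 4 members between EPM and BMDM before treatment, 1 and 2 for their difference of response at 1 h and 12 h, and 3, 3 and 0 for 12 h minus 1 h in EPM, BMDM and B cells.

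With the replicate block of the dye, 1 member and 2406 genes were called in B cells at 1 h, 1937 genes at 12 h, 4 members in BMDM controls and 3 for 12 h minus 1 h in B cells. The block also called Stat3 in EPM controls (adjusted p = 0.0131) and for 12 h minus 1 h in EPM (0.000186), Stat6 for both 12 h differences of response (0.0364 and 0.0458), and Stat3 and Stat5a for 12 h minus 1 h in B cells (0.0321 and 0.0464), and it changed no other call besides those given with the results.

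With the processed signal, 1 member was called in EPM controls and 2 for 12 h minus 1 h in B cells, and the 12 h difference in Il10 between EPM and BMDM reversed to 0.34. Without normalization between arrays, 1482 genes were called in B cells at 1 h and 2 members for 12 h minus 1 h there, and Stat6 between B cells and BMDM before treatment reversed to -0.060. With genes detected in all channels compared, 521 and 519 genes were called in B cells at 1 h and 12 h, and within the B cell arrays alone 392 and 533, with 0 members for 12 h minus 1 h in both. With all probes fitted, which tests more features, 8300, 15010, 8086, 18614, 1694 and 1714 were called. The mean of all probes of a gene gave 3 members in BMDM controls and 8 for the 12 h difference between EPM and BMDM. Leaving out 1 channel at a time gave 333 to 657 genes in B cells at 1 h, 593 to 837 at 12 h, 0 to 1 members for 12 h minus 1 h in B cells and 1 to 2 in EPM controls. Without the Cy3 channel of the 12 h EPM control, Stat6 was called in the 12 h response of EPM minus BMDM (-0.47) and of B cells minus macrophages (0.32).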
